A study of Mus musculus with 2 samples.

Results

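The 10 genes described here mark the macrophages that live along the vessels of many tissues, namely Lyve1, Folr2, Pf4, Cd209f, Cd163, Cbr2, Selenop, Mrc1, Stab1 and Timd4. They were taken by name, and all 10 were found among the 32285 genes counted in CD45+ cells sorted from mouse brown adipose tissue (BAT). Single-cell RNA was measured in 1 control library and 1 AdipoΔ/Δ library. Both groups were male C57Bl/6 AdipoQ-CreERT2 ATGLfl/fl mice, 16 weeks old by the labels, while a figure legend of the study gives a younger age. Control mice received vehicle, and AdipoΔ/Δ mice received tamoxifen at 10 mg/ml in 200 uL per mouse. Both were injected into the peritoneum every 2 days over 1 week and then rested for 2 weeks. The Adipoq promoter drives the inducible Cre in adipocytes, so the sorted leukocytes are not the cells in which ATGL, the first enzyme of triglyceride breakdown, was deleted. How many mice went into a library is not given in the sources used here, and both libraries carry replicate number 1. With 1 library per condition no difference between conditions could be tested, and each interval below is a 95% interval that covers counting error only.

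Tissue macrophages with this gene set sit near blood vessels in fat, heart, lung and other organs, and they are known for taking up circulating and extracellular molecules. Most of the set encodes surface receptors for uptake. Mrc1 encodes the mannose receptor CD206, Stab1 the scavenger receptor stabilin-1, Cd163 the receptor for haptoglobin-bound hemoglobin, Lyve1 a receptor for hyaluronan, Folr2 the folate receptor beta, Timd4 a receptor for phosphatidylserine on dying cells, and Cd209f a C-type lectin of the DC-SIGN family. Pf4 encodes a chemokine best known from platelets, Selenop the secreted carrier of selenium, and Cbr2 a carbonyl reductase. In other tissues, macrophages high in these genes tend to be low in MHC class II genes and in Ccr2, the receptor that recruits monocytes.

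The genes are spread over 8 chromosomes of the GRCm38 build used for the counts. Folr2 (chr7:101839988-101857194) and Lyve1 (chr7:110850607-110863239) share chromosome 7, and Cbr2 (chr11:120729489-120732114) and Timd4 (chr11:46810800-46844332) share chromosome 11. The promoters of 4 genes that were highest in the same cells are shown as examples, taken from the RefSeq table of the GRCm38.p6 build, each from 250 bases before to 50 bases after a start site. Capitals mark the letters of 3 searched motifs on either strand, GAGGAA of PU.1-type ETS factors, TGCTGA of MAF factors and TATAAA of the TATA box.
Mrc1 (chr2:14229164-14229463, plus strand): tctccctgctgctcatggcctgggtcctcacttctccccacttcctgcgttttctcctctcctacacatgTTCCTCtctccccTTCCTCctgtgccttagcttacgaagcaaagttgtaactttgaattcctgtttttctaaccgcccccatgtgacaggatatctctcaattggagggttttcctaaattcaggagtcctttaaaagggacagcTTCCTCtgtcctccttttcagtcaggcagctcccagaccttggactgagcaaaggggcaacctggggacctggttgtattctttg
Stab1 (chr14:31168592-31168891, minus strand): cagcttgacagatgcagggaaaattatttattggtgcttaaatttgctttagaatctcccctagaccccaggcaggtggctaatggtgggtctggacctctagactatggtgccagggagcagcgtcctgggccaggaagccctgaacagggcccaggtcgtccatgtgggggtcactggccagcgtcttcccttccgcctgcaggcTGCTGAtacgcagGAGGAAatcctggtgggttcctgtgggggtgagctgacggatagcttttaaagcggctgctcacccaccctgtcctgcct
Cbr2 (chr11:120731972-120732271, minus strand): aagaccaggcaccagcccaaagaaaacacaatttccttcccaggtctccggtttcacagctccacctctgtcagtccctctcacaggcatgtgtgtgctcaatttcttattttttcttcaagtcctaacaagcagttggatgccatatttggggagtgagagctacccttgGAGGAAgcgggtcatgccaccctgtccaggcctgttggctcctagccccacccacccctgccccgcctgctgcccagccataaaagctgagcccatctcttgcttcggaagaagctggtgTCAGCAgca
Cd209f (chr8:4105715-4106014, minus strand): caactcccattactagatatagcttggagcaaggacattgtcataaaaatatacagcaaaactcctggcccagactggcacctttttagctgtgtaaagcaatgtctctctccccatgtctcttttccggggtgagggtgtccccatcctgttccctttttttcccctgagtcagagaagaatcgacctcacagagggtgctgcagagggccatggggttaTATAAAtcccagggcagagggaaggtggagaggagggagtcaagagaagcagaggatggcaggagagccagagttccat
The Mrc1 window held GAGGAA 3 times, on the reverse strand. Stab1 and Cbr2 each held GAGGAA and TGCTGA, and the Cd209f window held TATAAA. Start sites of 9 of the 10 genes were matched, with 12 windows in all. GAGGAA was found in 6 of the 12 windows against 28.3% of 32851 promoters, TGCTGA in 5 against 19.5%, and TATAAA in 2 against 13.6%. Folr2 and Selenop have more than 1 window, and those of Selenop overlap, so a site can be counted again. By gene, the motifs were found in 5, 4 and 2 of the 9 genes. The Cd163 window, not shown, held 0 matches. These are letter matches, and no binding was measured here.

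After filtering, 2279 control cells and 2016 AdipoΔ/Δ cells were kept, with a median of 3678 and 3942 unique molecular identifiers (UMIs) per cell. A UMI stands for 1 captured RNA molecule, and 3′ counts of this kind do not scale with transcript length. Cells were grouped into 18 clusters without the 10 genes among the clustering features, and 13 clusters were named from marker lists that hold none of them. Levels are given as CPM, the UMIs of a gene relative to all UMIs summed over the cells of a cluster. Of the kept cells, 943 in the control and 1237 in the AdipoΔ/Δ library held at least 1 UMI of the 10 genes. T, B and NK cell-like cells served as the background of free RNA. In these 737 and 397 cells, Lyve1 was found in 0 control cells, which allows a share of up to 0.407% of cells with a UMI, and in 4 AdipoΔ/Δ cells. Mrc1 was found in 1.22% of them in the control and in 6.30% in the AdipoΔ/Δ library, Pf4 in 0.95% and 5.54%, and Selenop in 22.7% and 29.5%. The median depth of these cells was 3557 and 5363 UMIs, so these shares are not at equal depth. Summed over the 10 genes, the level per UMI in them was 88.0 CPM in the control (78.0 to 98.8). In the AdipoΔ/Δ library it was 118 CPM (104 to 133). This sum does not give the level per UMI of Mrc1 or Pf4 alone. The libraries share 4 cell barcodes.

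Macrophage-like cells formed 2 clusters. The Gas6 cluster, led by Gas6, C1qa and Fxyd2, held 61 control and 139 AdipoΔ/Δ cells. The Gpnmb cluster, led by Gpnmb, Cd63 and Fabp5, held 12 and 82 cells. All 10 macrophage markers were detected in at least 10% of the cells of both clusters. Another myeloid cluster, the Lyz1 cluster, led by Lyz1, Retnla and Fcrls, detected 7 of the 10 markers but scored below the threshold and stayed unnamed, with 49 control cells (2.15%) and 177 AdipoΔ/Δ cells (8.78%). Other unnamed clusters with macrophage markers were led by Mcpt4, Rgs5 and Sparc (1.18% and 7.69% of cells) and by Col3a1, Dcn and Col1a1 (1.84% and 3.77%), at a median of 938.5 and 906.5 UMIs per cell over both libraries.

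The 10 genes were concentrated in the Gas6 cluster, which is 2.68% of control and 6.89% of AdipoΔ/Δ cells. It held 51.1% of all their UMIs in the control and 64.1% in the AdipoΔ/Δ library. Together they made up 11586 CPM of that cluster in the control (11139 to 12046) and 11842 CPM in the AdipoΔ/Δ library (11626 to 12062). In all other cells together they made up 230 and 616 CPM. Macrophage-like cells had the highest CPM of the 10 named classes for 9 of the 10 genes in each library, against 14.3% of all tested genes in the control and 11.5% in the AdipoΔ/Δ library. Timd4 was the exception. It was listed at 9.51 CPM in dendritic cell-like cells and 8.10 CPM in macrophage-like cells of the control, and at 6.81 and 6.78 CPM in the AdipoΔ/Δ library. These levels rest on 2 to 14 UMIs, and their intervals overlap. The order of Timd4 between the classes is thus not resolved at this depth.

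**Figure D1:**
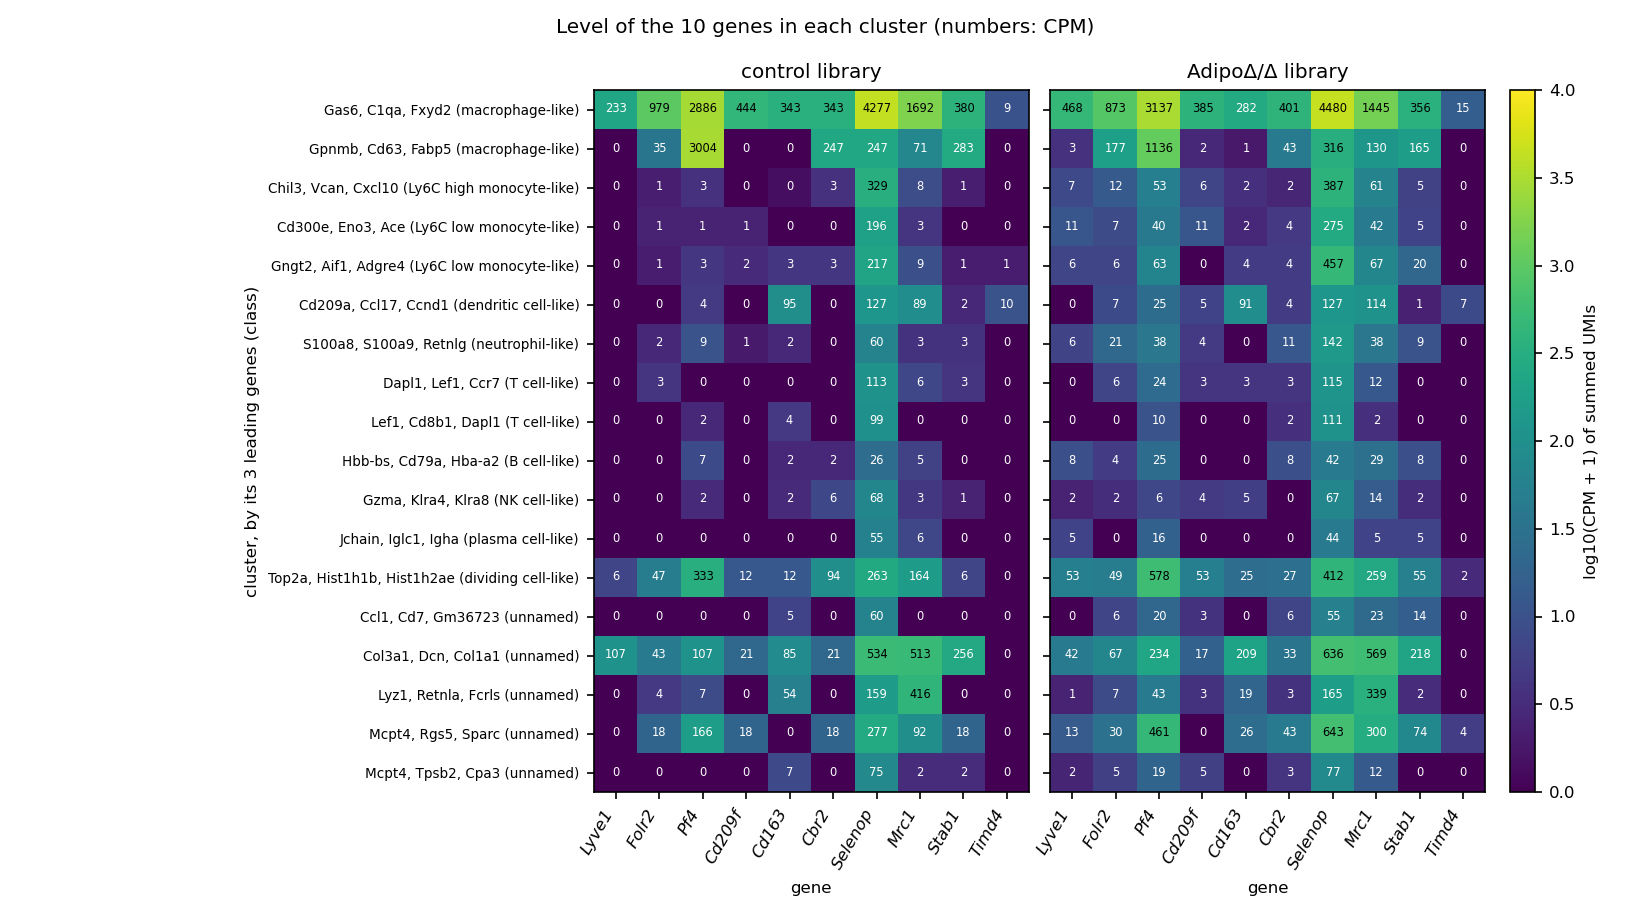
Level of each gene (columns) in each cluster (rows, named by 3 leading genes and class) in the control (left) and AdipoΔ/Δ (right) libraries, as CPM of summed UMIs. Color gives log10(CPM + 1) and the printed number the CPM. The Gas6 cluster in the top row is the highest for most genes, Timd4 stays at or below 15 CPM in every cluster, and the Lyz1 cluster holds Mrc1 at 416 and 339 CPM with the other genes lower.

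The genes differed in how far they were confined to the Gas6 cluster. The remainder includes the macrophage-like Gpnmb cluster, which held 182 UMIs of Stab1 and 196 of Folr2 in the AdipoΔ/Δ library. The Gas6 cluster held 89.5% of the control and 87.2% of the AdipoΔ/Δ UMIs of Lyve1, 92.4% and 85.3% of those of Cd209f, and 90.7% and 74.0% of those of Folr2. For Selenop the shares were 34.8% and 65.3%, for Mrc1 58.0% and 54.5%, and for Stab1 70.3% and 53.9%, so the order of the genes was not the same in both libraries. Selenop stood at 329 CPM in control and 387 CPM in AdipoΔ/Δ Ly6C high monocyte-like cells. After each cell was thinned to 1000 UMIs, Selenop was found in 26.9% and 28.2% of these monocytes against 7.02% and 7.62% of T, B and NK cell-like cells. Cd163 was present in dendritic cell-like cells at 95.05 CPM in the control and 91.2 CPM in the AdipoΔ/Δ library, in 19 of 85 and 20 of 111 cells. Mrc1 was present there at 89.4 and 114 CPM.

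Of the scavenger and endocytic receptors, Mrc1 had the highest level in the Gas6 cluster, at 1692 CPM in the control (1524 to 1874) and 1445 CPM in the AdipoΔ/Δ library (1370 to 1523). A UMI of it was found in 80.3% and 93.5% of these cells, or in 63.2% and 67.3% after thinning to 1000 UMIs. The AdipoΔ/Δ level was 0.854 times the control level (0.761 to 0.960), but 1.03 times as a mean over cells and 1.82 times in cells at or below 2% mitochondrial UMIs, so its direction was not stable. Mrc1 overlaps the microRNA gene Mir511 on its own strand. Mrc1 also had the highest level of the set in the Lyz1 cluster, at 416 CPM in the control and 339 CPM in the AdipoΔ/Δ library. It was found there in 38 of 49 and 129 of 177 cells. Selenop came next in that cluster, at 159 and 165 CPM.

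Folr2 stood at 979 CPM in the control Gas6 cluster (852 to 1119) and at 873 CPM in the AdipoΔ/Δ one (815 to 934), a ratio of 0.892 (0.767 to 1.04). It was found in 59.0% and 63.3% of cells. Stab1 stood at 380 and 356 CPM, a ratio of 0.937 (0.735 to 1.21), and Cd163 at 343 and 282 CPM, a ratio of 0.822 (0.634 to 1.08). All 3 intervals include 1, and the shares of cells with a UMI were 55.7% and 52.5% for Stab1 and 32.8% and 36.7% for Cd163. Folr2 overlaps Gm10602 and Gm45319 on the other strand, and Stab1 overlaps Nt5dc2. How strand was used in counting is not given in the sources used here.

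Cd209f stood at 444 CPM in the control Gas6 cluster (360 to 541) and at 385 CPM in the AdipoΔ/Δ one (347 to 426), a ratio of 0.868 (0.692 to 1.097). As a mean over cells the ratio was 1.49 for Cd209f, 1.36 for Cd163 and 1.22 for Folr2. Its UMIs were uneven, since 15 of 61 control cells held all 97 of them and 5 cells held 75.3%. Cd209f belongs to a family of related lectin genes, so its counts are uncertain where a read matches more than 1 of them. Timd4 was detected with 2 UMIs in 2 of 61 control cells and with 14 UMIs in 7 of 139 AdipoΔ/Δ cells, too few for a ratio.

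Lyve1 was the receptor that differed most between the libraries within the Gas6 cluster. It stood at 233 CPM in the control (174 to 307) and at 468 CPM in the AdipoΔ/Δ library (426 to 514). The ratio was 2.01 (1.50 to 2.74). Other processing gave ratios from 1.62, with the libraries merged without integration, to 6.30, with a mitochondrial limit of 2% and new clusters. A Lyve1 UMI was found in 13 of 61 control cells (21.3%, 11.9% to 33.7%) and in 50 of 139 AdipoΔ/Δ cells (36.0%, 28.0% to 44.5%), so the intervals of the shares overlap. The control cells of this cluster were shallower, with a median of 2641 against 6008 UMIs. After thinning to 1000 UMIs the mean shares over 100 thinnings were 9.74% of 58 control cells (3.45% to 19.0% over the thinnings) and 24.0% of 132 AdipoΔ/Δ cells (19.7% to 28.0%), and these ranges, which cover the draw of UMIs and not the choice of cells, do not overlap. The cell with the most Lyve1 held 8 of the 51 control UMIs and 48 of the 450 AdipoΔ/Δ UMIs. The 5 cells with the most held 66.7% of the control and 40.7% of the AdipoΔ/Δ UMIs. The control level thus rests largely on a few cells, which the counting interval does not cover. Lyve1 is also a marker of lymphatic endothelium. The 9 endothelial markers summed to 0 UMIs in the control Gas6 cluster and to 4 UMIs in the AdipoΔ/Δ one, and their part in the Lyve1 level was not tested. Prox1 and Cdh5 held those 4, and Flt4 and Pdpn were at 0 in both libraries.

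The secreted proteins had the highest levels of the set. Selenop stood at 4277 CPM in the control Gas6 cluster (4007 to 4560) and at 4480 CPM in the AdipoΔ/Δ one (4348 to 4616), a ratio of 1.05 (0.976 to 1.13), in 96.7% and 98.6% of cells. Selenop overlaps Ccdc152 on the other strand. Pf4 stood at 2886 CPM (2665 to 3121) and 3137 CPM (3026 to 3251), a ratio of 1.09 (0.997 to 1.19), in 83.6% and 91.4% of cells. Because Pf4 is abundant in platelets, cells with a UMI of the platelet gene Ppbp were counted. They were 1 of 61 and 3 of 139 cells, and without them Pf4 stood at 2834 and 3115 CPM. The 8 platelet markers together held 1 and 12 UMIs in this cluster, and Itga2b, Gp9, Gp1bb, Gp1ba and Tubb1 were at 0 in both libraries.

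The enzyme gene Cbr2 stood at 343 CPM in the control Gas6 cluster (270 to 430) and at 401 CPM in the AdipoΔ/Δ one (362 to 443), a ratio of 1.17 (0.910 to 1.52). It was found in 45.9% and 64.7% of cells, or in 23.8% and 32.2% after thinning.

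Within the Gas6 cluster, 1 of the 9 genes with at least 20 UMIs was at least 2-fold higher in the AdipoΔ/Δ library (Lyve1), against 12% of 6106 tested genes, and 0 were at least 2-fold lower, against 3.39%. Lyve1 fell below 2-fold without the cells of highest doublet score (1.896) and with merged libraries (1.62), where 0 genes were at least 2-fold changed. No test was run, since there is 1 library per condition. The median log2 ratio of the 9 genes was -0.09, and that of all tested genes was 0.15. For genes at 0 in 1 library, the ratio was taken against 3 UMIs. The summed level of the set in this cluster was nearly equal in both libraries (11586 and 11842 CPM). Selenop (4277 and 4480 CPM) and Pf4 (2886 and 3137 CPM) lead this sum, so it says little on the other genes. It weighs deeper cells more, and ratios as a mean over cells, where given here, were higher than those from summed UMIs. The share of cells in the cluster was 2.58 times as high in the AdipoΔ/Δ library (1.89 to 3.54).

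The picture differed when both macrophage-like clusters were pooled (73 control and 221 AdipoΔ/Δ cells). Here 3 of 9 genes were at least 2-fold lower in the AdipoΔ/Δ library, against 7.57% of 7719 tested genes, and 0 were at least 2-fold higher, against 13.3%. Cd163 stood at 304 CPM in the control and 132 CPM in the AdipoΔ/Δ library (ratio 0.434, 0.335 to 0.568), Cd209f at 393 and 180 CPM (0.458, 0.366 to 0.579), and Mrc1 at 1507 and 742 CPM (0.493, 0.440 to 0.553). As a mean over cells of the share of UMIs, these ratios were 1.03 for Cd163, 1.12 for Cd209f and 0.804 for Mrc1. In cells of the same clusters at or below 2% mitochondrial UMIs they were 0.296, 1.09 and 0.960. The median log2 ratio was -0.76 over the 9 genes and 0.11 over all tested genes. The mix of the class differed between the libraries, since the Gpnmb cluster was 12 of 73 control and 82 of 221 AdipoΔ/Δ cells. In the AdipoΔ/Δ library the Gpnmb cells were deeper than the Gas6 cells, with a median of 12344.5 against 6008 UMIs, and in the control they were shallower, with 1321 against 2641. With the clusters weighted to 1 mix, 1 of the 9 genes was at least 2-fold changed, namely Lyve1, and with the Lyz1 cluster added to the class 0 were. Without each gene's top cell in each library, Cd163 was at 0.469 times, Cd209f at 0.5001 times and Mrc1 at 0.507 times. The 3 genes were also not at least 2-fold lower within the Gas6 cluster. Lyve1 was nearly level in the pooled class, at 207 and 219 CPM (1.06, 0.794 to 1.45).

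**Figure D2:**
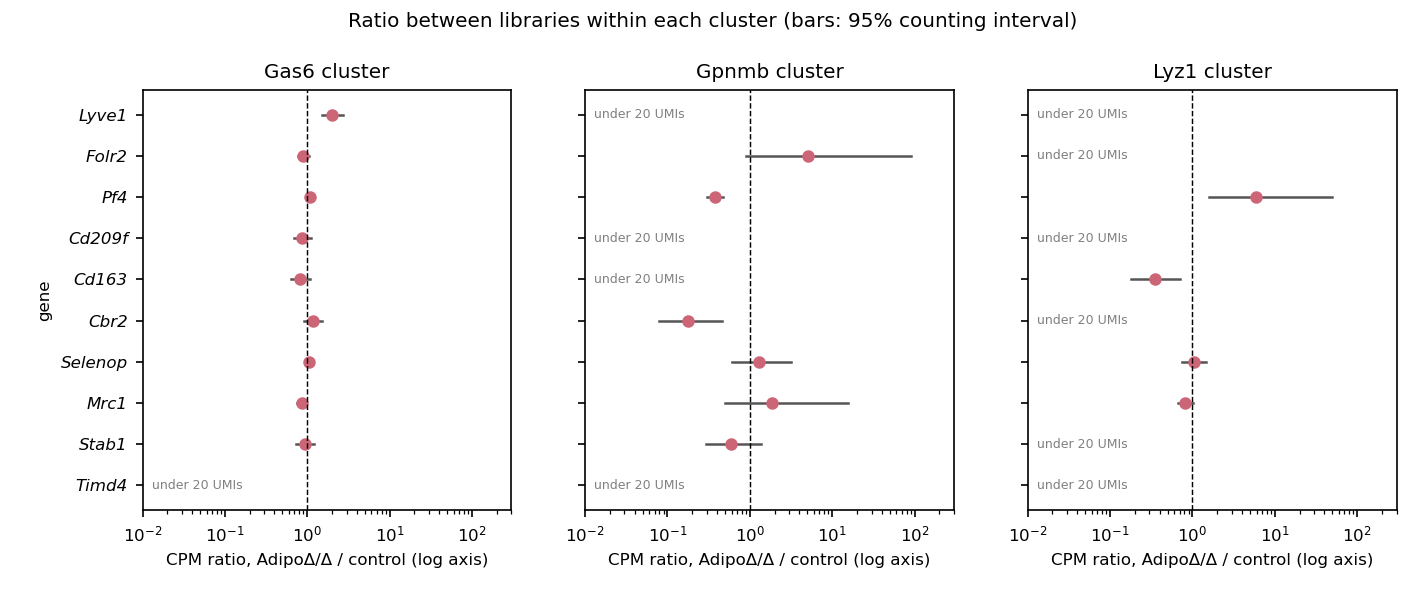
Ratio of CPM in the AdipoΔ/Δ over the control library for each gene in the Gas6, Gpnmb and Lyz1 clusters, on a log axis. Points give the ratio, bars the 95% counting interval and the dashed line a ratio of 1, and genes with under 20 UMIs over both libraries are marked. In the Gas6 cluster the points lie between 0.822 and 1.17 except Lyve1 at 2.01.

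Summed over all kept cells, each of the genes was higher in the AdipoΔ/Δ library, by 2.33 times for Selenop to 8.60 times for Lyve1. The share of all genes that were higher in this sum was not computed. In such a sum, more cells with a gene and more RNA of it per cell cannot be told apart. The Gas6 cluster held 218620 of 10753113 UMIs in the control and 961068 of 11316418 in the AdipoΔ/Δ library, and its part in these ratios was not tested. Lyve1 went from 5.30 to 45.6 CPM (8.60, 6.53 to 11.5), Pf4 from 76.3 to 438 CPM (5.75, 5.34 to 6.20) and Stab1 from 10.97 to 56.0 CPM (5.11, 4.19 to 6.27).

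The Gpnmb cluster, which holds the lipid-handling genes Trem2, Cd36 and Plin2, carried a part of the set. In the AdipoΔ/Δ library its 82 cells held Pf4 at 1136 CPM (1074 to 1201), Selenop at 316 CPM, Folr2 at 177 CPM, Stab1 at 165 CPM and Mrc1 at 130 CPM. Lyve1, Cd209f and Cd163 were near 0 there, with 3, 2 and 1 UMIs. The Gas6 cluster was higher by 172-fold for Lyve1 (58.6 to 839), by 14.2-fold for Selenop (12.7 to 15.9) and by 2.76-fold for Pf4 (2.58 to 2.95) in that library, which makes Pf4 and Stab1 (2.16-fold, 1.799 to 2.60) the genes most evenly shared between the clusters. The 12 control cells of the Gpnmb cluster had a median of 1321 UMIs against 12344.5, and their Pf4 level of 3004 CPM came from 85 UMIs in 2 cells. Both cells also held Ppbp, with 11 UMIs together. Their part in the level was not tested, and without them Pf4 was at 0 UMIs in the control Gpnmb cluster.

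Co-detection was then described in macrophage-like cells, each thinned to 1000 UMIs 100 times, which left 69 control and 213 AdipoΔ/Δ cells. For each pair of genes, the number of cells with a UMI of both was divided by the number expected from the product of their shares. Of 45 pairs, 34 in the control and 39 in the AdipoΔ/Δ library had at least 1 cell expected. Observed exceeded expected in 32 of the 34 pairs and in all 39 pairs, against 46.9% and 50.1% of pairs of other genes detected in 10% to 90% of the same cells. The median ratio was 1.41 and 1.65, and that of the other pairs was 0.986 and 1.00 in 1 thinning. Pairs share their genes and cells, so they are not independent.

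The pairs with Lyve1, Folr2, Cd209f and Cd163 were the strongest in the AdipoΔ/Δ library. Lyve1 and Cd209f were found together in 15.6 cells on average against 3.94 expected (3.96), Lyve1 and Cd163 in 11.8 against 4.13 (2.85), and Lyve1 and Folr2 in 27.9 against 10.2 (2.74). The weakest pairs joined the broad genes, such as Pf4 with Selenop at 1.27 times. In the control, Cd209f with Cd163 (2.34) and with Cbr2 (2.30) were the highest. The 2 control pairs below 1 were Cd163 with Cbr2, at 1.97 cells against 2.46 expected, and Lyve1 with Stab1, at 1.34 against 1.64. Both rest on fewer than 3 cells.

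The excess was smaller but remained within the Gas6 cluster alone, where the mix of clusters plays no part. There, 33 of 35 control pairs and all 40 AdipoΔ/Δ pairs exceeded the expected number, against 47% and 49.4% of other pairs, with medians of 1.23 and 1.26. In the AdipoΔ/Δ library Lyve1 and Cd209f stood at 2.52 times and Lyve1 and Folr2 at 2.02 times. At equal depth, some cells of this cluster thus held many of the genes and others few.

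**Figure D3:**
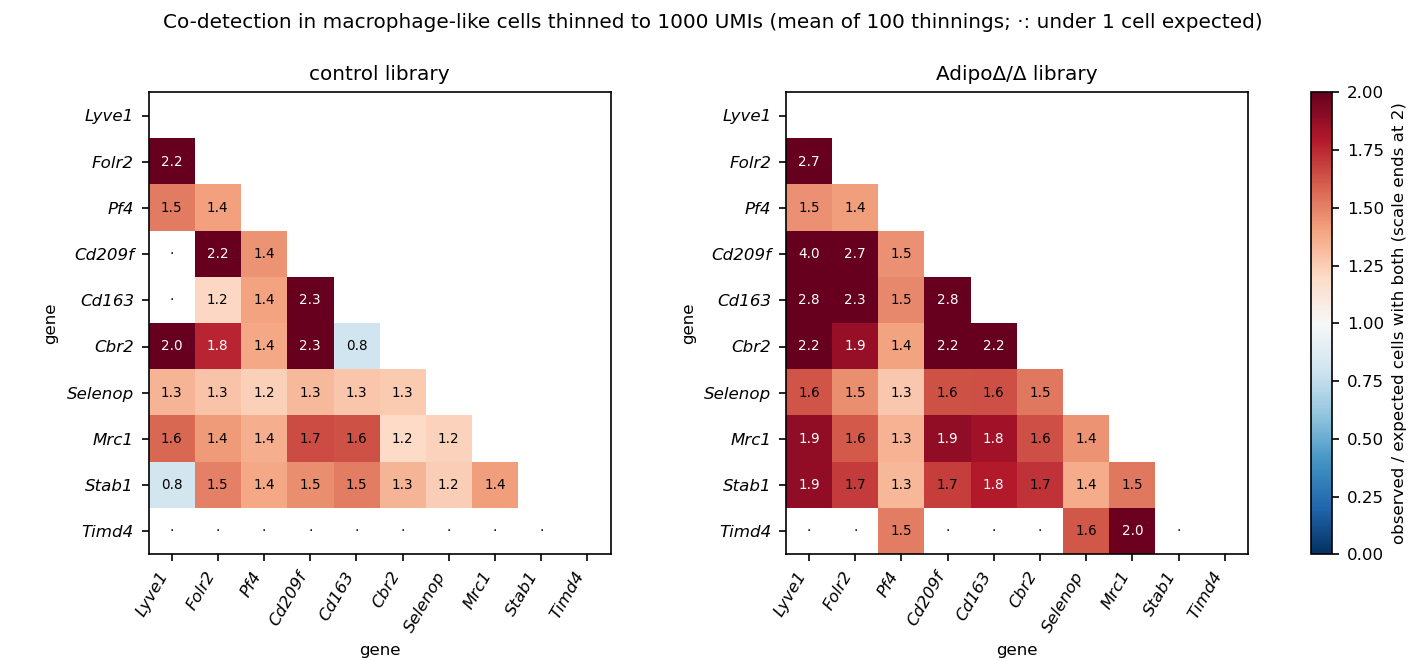
Observed over expected number of macrophage-like cells with a UMI of both genes, for each pair in the control (left) and AdipoΔ/Δ (right) libraries, as means over 100 thinnings to 1000 UMIs. Colors end at 2 and dots mark pairs with under 1 cell expected. In the AdipoΔ/Δ panel the pairs at the end of the scale lie among Lyve1, Folr2, Cd209f, Cd163 and Cbr2, up to 3.96 for Lyve1 with Cd209f. In the control panel the highest pair is Cd209f with Cd163, at 2.34.

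The number of genes per cell was counted in the same thinned cells. In the Gas6 cluster a thinned cell held a mean of 3.68 of the 10 genes in the control and 4.01 in the AdipoΔ/Δ library. At least 5 of the 10 were found in 36.2% of thinned control cells (27.6% to 44.8% over the thinnings) and in 43.2% of AdipoΔ/Δ cells (37.9% to 47.7%), ranges that overlap. None of the 10 was found in 5.47% and 6.36%. In the Gpnmb cluster the means were 0.566 and 0.978, over 11 control and 81 AdipoΔ/Δ thinned cells. Of those control cells 81.8% held none of the genes, so the control values of this cluster rest on very few cells. In the Lyz1 cluster the means were 0.555 and 0.561. T, B and NK cell-like cells held a mean of 0.0862 and 0.123. At least 3 of the 10 genes were found in 70.6% and 72.6% of cells of the Gas6 cluster, in 12.6% and 9.35% of the Gpnmb cluster and in 0.143% and 1.70% of the Lyz1 cluster.

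**Figure D4:**
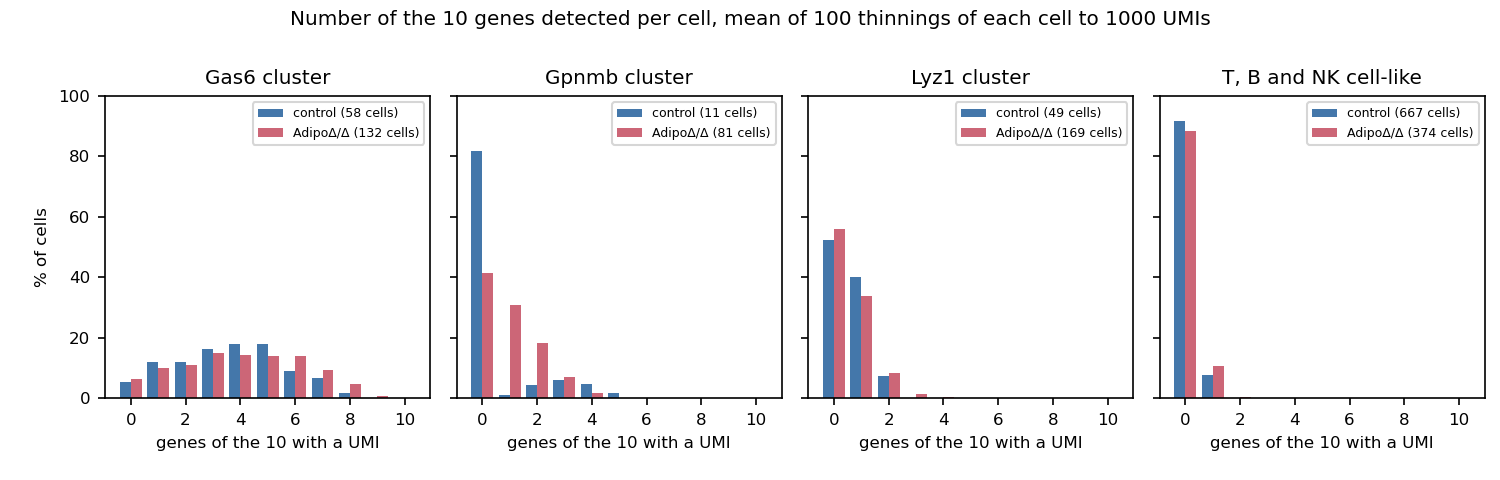
Share of cells (percent) by the number of the 10 genes with a UMI, in the Gas6, Gpnmb and Lyz1 clusters and in T, B and NK cell-like cells, as means over 100 thinnings of each cell to 1000 UMIs. Bars give the control and AdipoΔ/Δ libraries and start at 0. Means are 3.68 and 4.01 genes in the Gas6 cluster and at most 0.978 in the other panels.

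Cells of the Gas6 cluster with a Lyve1 UMI (13 control and 50 AdipoΔ/Δ cells) were then set beside the 48 and 89 cells without one. Of the other genes of the set with at least 20 UMIs, 4 of 8 were at least 2-fold higher with Lyve1 in the control, against 7.99% of 1401 tested genes. In the AdipoΔ/Δ library they were 7 of 8, against 10.9% of 5476 genes. None of the 8 was at least 2-fold lower in either library, against 12.3% and 8.11%. Their median log2 ratio was 1.11 and 1.58, beside -0.12 and 0.09 over all tested genes. Cells with Lyve1 had a median depth of 4845 against 2390.5 UMIs in the control and 4989.5 against 6355 UMIs in the AdipoΔ/Δ library, so the depth difference ran in opposite ways.

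Cd209f and Folr2 tracked Lyve1 most closely. Cd209f stood at 1108 CPM with and 134 CPM without Lyve1 in the control (8.26, 5.00 to 14.3), and at 1121 and 58.6 CPM in the AdipoΔ/Δ library (19.1, 13.7 to 27.4). Folr2 stood at 1900 and 550 CPM in the control (3.45, 2.60 to 4.61), and at 2262 and 257 CPM in the AdipoΔ/Δ library (8.81, 7.44 to 10.5). Cd163 was 2.73 and 3.92 times as high with Lyve1, Cbr2 2.59 and 2.57 times, Selenop 1.81 and 3.34 times, and Mrc1 1.41 and 2.69 times. Pf4 differed least of the genes higher in both libraries, at 1.34 and 1.92 times. Stab1 differed in direction, at 0.681 times in the control (0.390 to 1.14) and 2.45 times in the AdipoΔ/Δ library (1.97 to 3.04), and the control value rests on 20 and 63 UMIs.

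The antigen-presentation and recruitment genes ran the other way. H2-Ab1, a chain of MHC class II, stood at 3583 CPM with and 8060 CPM without Lyve1 in the control (0.445, 0.386 to 0.510) and at 2228 and 7738 CPM in the AdipoΔ/Δ library (0.288, 0.265 to 0.312). Cd74, the class II chaperone, was 0.525 and 0.366 times as high. Ccr2 stood at 173 and 858 CPM in the control (0.201, 0.101 to 0.364) and at 274 and 883 CPM in the AdipoΔ/Δ library (0.311, 0.243 to 0.392). Cx3cr1, the fractalkine receptor, held 0 UMIs in cells with Lyve1 in both libraries, against 8 and 60 UMIs in those without. Of the 7 genes of this list, 3 of 5 tested in the control were at least 2-fold lower with Lyve1, against 12.3% of 1401 tested genes. In the AdipoΔ/Δ library they were 7 of 7, against 8.11% of 5476 genes.

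**Figure D5:**
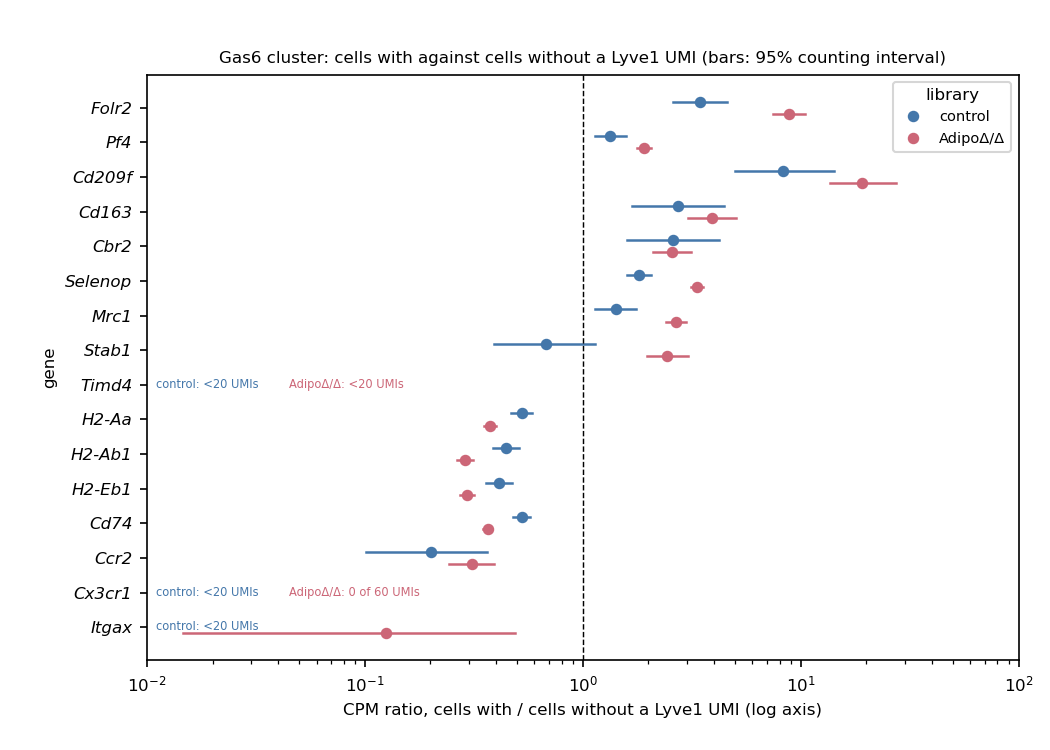
Ratio of CPM in cells with over cells without a Lyve1 UMI within the Gas6 cluster, for the other genes of the set and for MHC class II and recruitment genes, on a log axis. Points give the ratio in the control and AdipoΔ/Δ libraries, bars the 95% counting interval, and genes that could not be plotted are marked with their UMIs. Cd209f and Folr2 lie farthest to the right and the MHC class II genes and Ccr2 lie left of 1 in both libraries.

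Other genes reported for resident macrophages were listed apart from the 10. Between cells with and without Lyve1, 15 of 22 tested genes of this list were at least 2-fold higher in the control and 22 of 26 in the AdipoΔ/Δ library, and 0 were at least 2-fold lower, beside the shares of all genes just given. Fcna, a ficolin of innate immunity, was 27.9 times (6.98 to 243) and 15.3 times (9.72 to 25.1) as high, Ccl8, a chemokine, 9.20 and 12.5 times, Ednrb, an endothelin receptor, 6.78 and 14.4 times, and Cd209d, another lectin of the family, 4.91 and 14.8 times. Mgl2 was at 0.922 and 1.02 times, with intervals that include 1. Gas6, C1qa, Ccl8, Ednrb, Fxyd2, Cd209g, Dab2 and Mgl2 are among the genes that lead the Gas6 cluster, so their high level there is part of how the cluster was formed.

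Between the libraries, 27 of the 30 listed genes had at least 20 UMIs in the Gas6 cluster. Siglec1 was at least 2-fold higher in the AdipoΔ/Δ library and Ccl8 and Slc40a1 were at least 2-fold lower, beside the 12% and 3.39% of all tested genes given above, and the median log2 ratio of the list was -0.17. Vsig4, a complement receptor, held 0 UMIs in the control and 21 in the AdipoΔ/Δ library, all of them in cells with Lyve1. Against a floor of 3 UMIs, the AdipoΔ/Δ level of Vsig4 was 1.59 times as high, and the lower limit of the counting interval was 1.18. Siglec1, a sialic acid receptor, stood at 9.15 and 39.5 CPM (4.32, 1.12 to 37.0) on 2 control UMIs. Ccl8 stood at 508 and 177 CPM (0.348, 0.273 to 0.447), and Slc40a1, the iron exporter ferroportin, at 64.0 and 15.6 CPM (0.244, 0.110 to 0.545). H2-Ab1 stood at 6637 and 6045 CPM (0.911, 0.8598 to 0.965) and Ccr2 at 640 and 696 CPM (1.09, 0.905 to 1.31). Stab2, the homolog of Stab1, held 0 UMIs in this cluster in both libraries.

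Likeness to the set was described by Pearson's r of log2(CPM + 10) with the mean profile of the 10 genes over the 32 cluster and library points with at least 20 cells, among 9452 genes with at least 100 UMIs. The 10 most alike genes outside the set were Gas6 (0.951), Slco2b1 (0.942), Fcna (0.941), Dab2 (0.932), Ednrb (0.931), Fxyd2 (0.921), Reps2 (0.919), C1qc (0.9151), C1qa (0.909) and C4b (0.903). The median over all ranked genes was 0.0679. Of the set itself, Folr2 (0.961) and Cbr2 (0.9502) were nearest to the mean, and Cd163 (0.795) was farthest among those ranked. The points come from 2 libraries that share depth and free RNA, and the mean profile includes the 10 genes themselves.

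Dividing cells held a few cells of this kind. Among the 33 dividing cell-like cells of the AdipoΔ/Δ library, 1 cell held 9 of the 10 genes, with 27 UMIs of Lyve1, 27 of Cd209f, 20 of Folr2 and 80 of Selenop beside 18 of Mki67 and 35 of Top2a, genes of the cell cycle. It had 33525 UMIs in all. It was the 1 dividing cell with Lyve1 in that library, and a second dividing cell held 158 UMIs of Pf4 without Lyve1. In the control, 1 of 16 dividing cells held a Lyve1 UMI. Whether single barcodes of this depth hold 1 cell or more was not tested.

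Cells of high mitochondrial share bear on the set. The median mitochondrial share in the Gas6 cluster was 4.07% in the control and 4.24% in the AdipoΔ/Δ library, beside 1.65% and 2.18% in all other cells. Of its cells, 12 of 61 and 19 of 139 lie at or below a limit of 2%, the value stated by the study, so the levels above depend on the wider limit of 10%.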

How the data were processed

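UMI counts per gene and barcode were made by the authors with Cell Ranger 4.0.0 on the mm10 build (10x 3′ chemistry), and the deposited values are raw counts, whole and not normalized, for 2597 control and 2381 AdipoΔ/Δ barcodes (11327187 and 12028844 UMIs). The filter required 200 detected genes and a mitochondrial share of UMIs no higher than 10%. A limit of 2%, as the study's methods state, passes 51.4% and 37.7% of the deposited barcodes. These are fewer cells than the study kept, so its filter as applied could not be rebuilt here. Scrublet in Scanpy 1.11.5 marked 8 (0.308%) and 6 (0.252%) barcodes as doublets at an expected rate of 2%, and doublets were left in.

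Libraries were normalized with sctransform 0.4.2 and integrated in Seurat 5.3.0 (R 4.3.3) on 2000 features less the 9 of the 10 genes among them, with 20 principal components and a resolution of 1. A cluster was named from a marker list if its score was at least 1 and at least 3 markers were found in at least 10% of cells. These thresholds were set with the data in view. Cluster names were rebuilt here, so a difference from the study may come from them.

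CPM were computed from summed UMIs with exact Poisson intervals, shares with exact binomial intervals and ratios with conditional binomial intervals, all at 95% and for counting error only. Ratios needed 20 UMIs. Cells were thinned 100 times to 1000 UMIs, which left out 199 control and 259 AdipoΔ/Δ cells. With 1 library per condition no test was run. The ratio code was tested on simulated data. Alternatives varied the filters, clustering, scaling and depth. The genes named are the 10 genes, those of the fixed lists, the 10 most alike genes and the 3 leading genes of each cluster. Trem2, Cd36 and Plin2 were named after their values were seen. The genes and lists were chosen with earlier results of these data known.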

Additional observations from a re-analysis of the deposited data

Results flagged for a closer look

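The level of Pf4 moved in opposite ways in 2 clusters. In the Gpnmb cluster the AdipoΔ/Δ level was 0.378 times the control level (0.304 to 0.477), whereas in the Lyz1 cluster it was 5.93 times the control level (1.57 to 50.1). The difference between the clusters was not tested. The control values rest on 85 UMIs in 2 cells of the Gpnmb cluster, both with Ppbp, and on 2 UMIs in the Lyz1 cluster. In the AdipoΔ/Δ Lyz1 cluster, 1 cell held 49 UMIs of Ppbp and 3 of Pf4, and without it Pf4 stood at 41.2 CPM.

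The barcodes that the filter left out also held the 10 genes. In the AdipoΔ/Δ library, 365 such barcodes held them at 5926 CPM (5749 to 6108), against 1569 CPM in the kept cells. In the control, 318 such barcodes held them at 1286 CPM (1194 to 1382), against 461 CPM in the kept cells. These barcodes entered no comparison above.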

How the results depend on the processing

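No paired analysis was possible because each condition has 1 library and no test was run. The highest level in macrophage-like cells was kept by 9 or 10 genes in the control under every alternative except the mitochondrial limit of 2%, where it was kept by 2, with 8 control and 33 AdipoΔ/Δ macrophage-like cells left. The median co-detection ratio stayed above 1 in both libraries wherever it could be given, from 1.11 to 1.97 in the control and from 1.13 to 2.37 in the AdipoΔ/Δ library. It could not be given for the control at 2%.

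The Lyve1 ratio of 2.01 in the Gas6 cluster became 6.30 at 2% after clustering again, where the cluster that stood for it was unnamed and held 41 control and 94 AdipoΔ/Δ cells, and 2.98 as a mean over cells. It lay between 1.62 and 2.196 under the other alternatives that gave it, and cells of the same cluster at or below 2% held too few UMIs to give it. The count of 1 gene at least 2-fold changed in the Gas6 cluster became 4 at 2%, 0 without the 5% of cells with the highest doublet scores and 0 with merged libraries. The count of 3 genes in macrophage-like cells became 5 at 2%, 6 with merged libraries, 1 as a mean over cells and 1 weighted to a single mix.

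Alternatives chosen after seeing the data gave counts in macrophage-like cells of 0 with the Lyz1 cluster added, 1 without each gene's top cell in each library (the ratios of Cd209f and Mrc1 then lay just above 0.5) and 5 with cells of the same clusters at or below 5% mitochondrial UMIs. In the Gas6 cluster such cells gave 0 at 5% and 3 at 2%.

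Ratios in macrophage-like cells that crossed 1 were, at 2%, Pf4 at 10.3 and Selenop at 1.21. In cells of the same clusters at or below 2% they were Pf4 at 3.59, Folr2 at 1.00, Cd209f at 1.09 and Stab1 at 1.21. As a mean over cells they were Cd209f at 1.12, Cd163 at 1.03 and Selenop at 1.02, and weighted to a single mix Selenop at 1.05. In the Gas6 cluster Mrc1 crossed 1 as a mean over cells (1.03) and in cells at or below 2% (1.82). Cd209f, Cd163 and Folr2 also lay above 1 there as a mean over cells. Their main ratios were 0.868, 0.822 and 0.892, with intervals that include 1. The cause was not tested. Shares of all genes were not computed under these alternatives, so the counts cannot be read against them. Depth limits the Gpnmb cluster of the control (12 cells), the 13 control cells with Lyve1 and all values of Timd4.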
